A study of Mus musculus with 2 samples.

Results

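The proteasome genes are the genes named Psma to Psmg followed by a digit, which encode the subunits, activators, inhibitor and assembly factors of the main protease of the cell. Rows were taken by name from the RPKM tables of WT and of G34R embryonic stem (ES) cells of the mouse, leaving out chromosome 8, which gave 48 of 26127 quantitated genes. RPKM is the number of reads scaled for transcript length and library total, so it allows levels of genes of different length to be set side by side. Of the 48 rows, 18 encode subunits of the core particle (8 alpha and 10 beta), 16 encode subunits of the regulatory particle, 5 encode activators or an inhibitor and 7 encode assembly factors. The 2 remaining rows were grouped apart: Psmc3ip encodes a co-factor of meiotic recombination, and Psme2b-ps is a copy of Psme2.

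The proteasome is a barrel of stacked alpha and beta rings capped by a regulatory particle. The alpha rings gate the entry, and catalytic beta subunits inside the barrel cut proteins. The regulatory particle binds ubiquitin-tagged proteins, removes the tag in its lid and unfolds the protein with the ATPases of its base. Cells exposed to interferon can replace catalytic subunits with inducible ones, which changes the peptides made for presentation on MHC class I, and PA28 and related activators can take the place of the regulatory particle. ES cells have been described as cells of high proteasome activity.

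Both cell lines were of the strain 129S1/SvImJ, at fewer than 20 passages, and were grown in serum with leukemia inhibitory factor. WT cells carried unmodified H3f3a and H3f3b, the genes for the histone variant H3.3. In G34R cells 1 H3f3a allele had exon 2 replaced by a minigene with the G34R (glycine to arginine) change, which Cre placed under the endogenous H3f3a promoter, while the other H3f3a allele and both alleles of H3f3b were WT. Each cell line gave 1 library of total RNA, with estimated depths of 88.2 M reads for WT and 72.5 M for G34R. A difference between the libraries therefore has no replicate check, no test was possible, and the mutation cannot be told apart from differences between clones or cultures. In bulk RNA, fewer cells with a transcript and less of it per cell cannot be told apart either. Intervals given below are 95% counting intervals on reads estimated from RPKM, which cover counting error only, since amplified reads without molecular identifiers are not independent molecules.

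All 8 ES cell markers examined were present at 16.4 RPKM or more in both libraries, with Pou5f1 at 194 RPKM in WT and 189 RPKM in G34R cells. Summed RPKM of 7 fibroblast markers was 1.48 in WT and 0.94 in G34R cells, and Postn, Lum and Dcn were listed at 0 in both. Of these ES cell markers, 2 were more than 2-fold lower in G34R cells: Nanog (127 RPKM in WT and 52.2 RPKM in G34R cells) and Zfp42 (180 and 16.4 RPKM), which lies on chromosome 8. Utf1 was more than 1.5-fold higher, with 61.9 RPKM in WT and 109 RPKM in G34R cells, and the other 5 lay within 1.5-fold. Of all genes with at least 1 RPKM in 1 library, 6.42% were more than 2-fold lower and 11.3% more than 1.5-fold higher. The 6 primitive endoderm markers examined summed to 2.07 and 4.55 RPKM. H3f3a itself had 8.17 RPKM in WT and 4.89 RPKM in G34R cells, a value that does not separate its alleles. The part of these differences in the values below was not tested.

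Promoters are shown first for Psme1, which had the highest ratio of all 45 genes past the filter on low values, for its partner Psme2, and for 2 constitutive subunits and the inducible ones that replace them. RefSeq promoters (assembly GRCm38.p6, 250 bases before to 50 bases after the start) were matched for 41 of the 48 genes. No promoter was matched for Psma8, Psmb1, Psmb2, Psmb7, Psmc3, Psmd3 and Psmg2. Capitals mark matches to the antioxidant response element core bound by NRF factors (TGACNNNGC), the interferon-stimulated response element core (GAAANNGAA) or the gamma-activated site bound by STAT factors (TTCNNNGAA), each searched on both strands. All are written 5′ to 3′ on the gene's strand. Psmb5 (chr14:54617946-54618245, minus strand) and Psmb6 (chr11:70525107-70525406, plus strand) encode catalytic subunits of the constitutive core. Psmb8 (chr17:34197945-34198244, plus strand) and Psmb9 (chr17:34187281-34187580, minus strand) encode their inducible counterparts. Psme1 (chr14:55578244-55578543, plus strand) and Psme2 (chr14:55591052-55591351, minus strand) encode the alpha and beta subunits of the PA28 activator.
Psmb5: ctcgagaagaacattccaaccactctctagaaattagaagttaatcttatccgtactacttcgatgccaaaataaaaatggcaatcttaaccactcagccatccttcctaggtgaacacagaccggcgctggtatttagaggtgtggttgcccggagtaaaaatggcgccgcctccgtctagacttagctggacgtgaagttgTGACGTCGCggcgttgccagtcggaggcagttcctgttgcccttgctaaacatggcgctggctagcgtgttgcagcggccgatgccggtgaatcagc
Psmb8: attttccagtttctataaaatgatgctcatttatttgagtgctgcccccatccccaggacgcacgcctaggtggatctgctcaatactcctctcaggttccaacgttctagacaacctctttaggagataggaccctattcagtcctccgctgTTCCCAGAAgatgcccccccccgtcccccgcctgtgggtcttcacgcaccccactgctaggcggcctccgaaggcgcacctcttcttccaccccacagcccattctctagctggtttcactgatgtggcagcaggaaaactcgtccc
Psmb6: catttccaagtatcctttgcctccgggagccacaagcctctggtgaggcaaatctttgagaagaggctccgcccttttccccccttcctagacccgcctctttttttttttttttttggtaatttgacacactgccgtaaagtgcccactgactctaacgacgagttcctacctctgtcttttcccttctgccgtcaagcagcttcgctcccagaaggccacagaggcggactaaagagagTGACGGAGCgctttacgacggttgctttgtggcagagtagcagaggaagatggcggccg
Psmb9: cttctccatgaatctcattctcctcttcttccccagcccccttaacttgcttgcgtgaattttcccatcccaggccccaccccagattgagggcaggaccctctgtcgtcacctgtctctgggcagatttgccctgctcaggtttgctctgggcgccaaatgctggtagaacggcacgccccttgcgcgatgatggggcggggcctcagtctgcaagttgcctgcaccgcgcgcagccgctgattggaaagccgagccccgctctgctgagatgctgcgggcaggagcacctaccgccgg
Psme1: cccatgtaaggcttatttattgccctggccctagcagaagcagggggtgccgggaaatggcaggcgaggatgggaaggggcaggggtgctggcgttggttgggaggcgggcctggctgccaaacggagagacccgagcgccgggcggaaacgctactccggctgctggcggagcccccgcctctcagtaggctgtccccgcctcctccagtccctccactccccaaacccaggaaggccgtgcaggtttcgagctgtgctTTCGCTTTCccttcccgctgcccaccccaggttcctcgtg
Psme2: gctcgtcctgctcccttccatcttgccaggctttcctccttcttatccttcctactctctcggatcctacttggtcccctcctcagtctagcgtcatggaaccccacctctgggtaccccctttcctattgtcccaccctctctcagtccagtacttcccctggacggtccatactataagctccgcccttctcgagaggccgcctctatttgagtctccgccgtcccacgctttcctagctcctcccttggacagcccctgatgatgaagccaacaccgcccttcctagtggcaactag

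Psmb5 held TGACGTCGC from base -47 and Psmb6 held TGACGGAGC from base -9, both counted from the start, whereas Psmb8 held the gamma-activated site TTCCCAGAA from base -97. In Psme1 the reverse of the interferon-stimulated core (TTCGCTTTC) began at base 11 after the start. Psmb9 and Psme2 held none of these letters in this window. Across the 41 matched promoters, TGACNNNGC was found in 14.6% against 12.5% of all 27025 RefSeq promoters. The related form TGAGNNNGC was found in 29.3% against 17.5%, and 1 or both forms stood in 16 of 41 (39.0% against 27.7% of all). GAAANNGAA was present in 14.6% of the proteasome promoters (8.6% of all) and TTCNNNGAA in 7.3% (8.5% of all). The GC box GGGCGG stood in 56.1% of proteasome promoters against 35.9% of all, and CCAAT in 36.6% against 37.9%. The median proteasome promoter held 19 CpG dinucleotides in 300 bases and the median of all promoters held 7. These matches describe the letters only, and no binding was measured here.

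Proteasome genes were among the more abundant transcripts of both cell lines. In each library 37 of the 48 genes (77.1%) had at least 10 RPKM, where the share of all genes was 12.0% (WT) and 11.8% (G34R). Together they held 1456 RPKM in WT and 1323 RPKM in G34R cells, which was 0.93% and 0.87% of the RPKM summed over all genes. The order of levels was nearly the same in both lines, with a Pearson r of 0.98 between log2 RPKM in WT and in G34R cells over 45 genes. That correlation is across genes that share both libraries and is given as a description. Only Psmb8, Psmb9 and Psmb11 had less than 1 RPKM in both libraries, and they are described separately. RPKM depends on the transcript length used, and the merged exons of these genes were 1 to 3.36 times as long as their longest coding transcript, most for Psma7. Levels of different genes could shift by up to that factor, while G34R/WT ratios of 1 gene are unaffected.

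**Figure D1:**
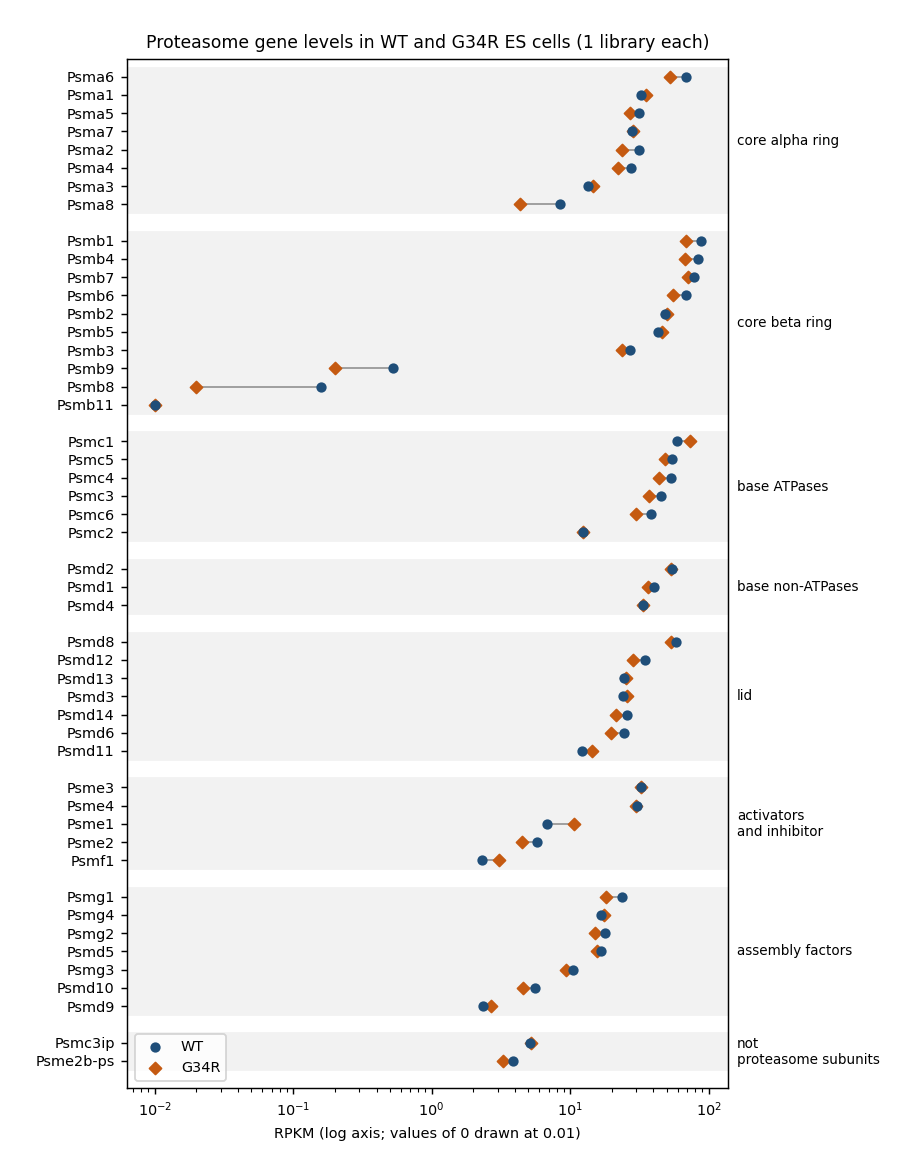
RPKM (log axis) of all 48 proteasome-named genes in WT (circles) and G34R cells (diamonds), 1 library each, ordered by mean level within each group of the complex; a grey line joins the values of 1 gene. Most subunits lie above 10 RPKM with the symbols close together, whereas Psmb8 and Psmb9 lie below 1 RPKM and Psmb11, listed at 0 in both, is drawn at 0.01.

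Levels of the proteasome genes differed little between WT and G34R cells. Of 45 genes with at least 1 RPKM in 1 library, 1 was more than 1.5-fold higher in G34R cells (Psme1), where 11.3% of all 10728 genes past the same filter were. Likewise 1 was more than 1.5-fold lower (Psma8), against 14.1% of all genes. None of the 45 differed by more than 2-fold, where 4.09% of all genes were higher and 6.42% lower. With a stricter filter of 5 RPKM, 42 proteasome genes were left and the same 2 genes passed 1.5-fold. Psma8 passed that filter only through WT (8.39 RPKM, against 4.34 RPKM in G34R cells), so this is no separate support for its difference. The shares of all genes were then 9.31% higher and 10.6% lower past 1.5-fold, and 3.09% higher and 4.07% lower past 2-fold.

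The median log2 (G34R/WT RPKM) of the 45 genes was -0.15, against -0.05 for all genes. Their standard deviation was 0.26 on this scale, against 0.87 over all genes, and 35 of the 45 lay within the middle 50% of all genes (-0.35 to 0.25). In the deposited RPKM, 31 of 45 proteasome genes (68.9%) had a ratio below 0, against 54.8% of all genes. Relative to the median of all genes, 26 of 45 (57.8%) were below and 19 above. By definition this median divides all genes evenly, with 5362 below it and 5363 above. Scaling both libraries to the same sum also gave 26 below 0 and 19 above, and the share of all genes was not taken there. Counting intervals lay entirely above the median of all genes for 14 of the 45 and entirely below it for 22. Counting error alone thus did not cover most of these small differences, and the spread between repeated cultures was not measured. Abundant genes differed less as a whole, as the middle 50% of genes with at least 5 RPKM lay between -0.31 and 0.23.

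**Figure D2:**
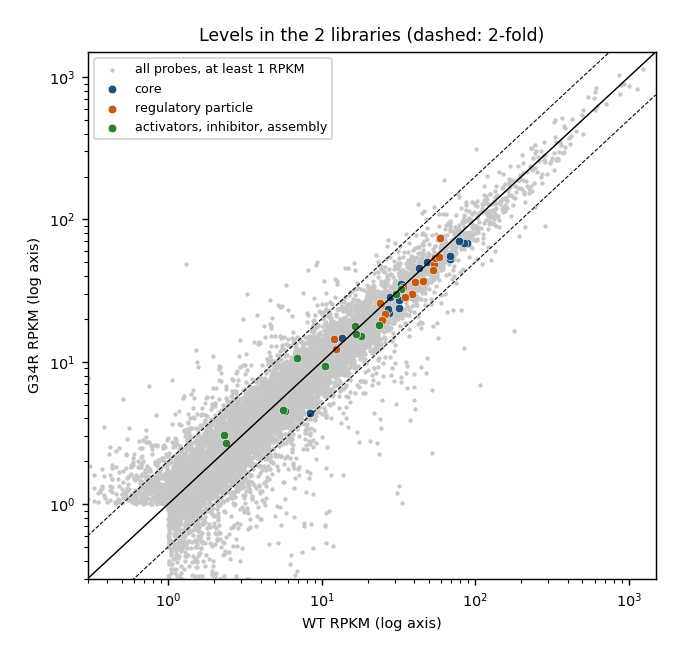
G34R against WT RPKM (both log axes) for all genes with at least 1 RPKM in 1 library (grey) and for the 43 proteasome subunit, activator, inhibitor and assembly genes among them (coloured by group); axes start at 0.3 RPKM, so genes lower in either library are not drawn. The solid line marks equal RPKM and dashed lines 2-fold, and no coloured point lies outside the dashed lines.

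The same comparison was made for 2 other abundant housekeeping complexes as a reference for these values. The 8 genes of the CCT chaperonin, which folds actin and tubulin, had a median log2 (G34R/WT RPKM) of -0.16 with 0 genes past 1.5-fold, where 11.3% of all genes were higher and 14.1% lower. The 74 mitochondrial ribosomal protein genes outside chromosome 8 had a median of -0.19, with 2 genes higher and 5 lower by more than 1.5-fold, against the same shares of all genes. The median of the proteasome genes (-0.15) was thus close to that of both complexes. No test of these small differences between lists was made.

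Among the alpha subunits of the core, which form its outer rings, Psma6 had the highest RPKM. It had 68.5 RPKM in WT and 52.7 RPKM in G34R cells (log2 ratio -0.38, interval -0.44 to -0.32). Its rank depends on the length used, as merged exons were 1.18 times the longest coding transcript for Psma6 and 3.36 times for Psma7. Psma1, Psma2, Psma4, Psma5 and Psma7 lay between 27.4 and 32.8 RPKM in WT cells, and between 22.1 and 35.2 RPKM in G34R cells. Psma3 was lower, with 13.5 RPKM in WT and 14.7 RPKM in G34R cells, and at 0.12 its log2 ratio was the highest of the ring. In all, 5 of the 8 alpha genes were lower in G34R cells and 3 higher, with a median log2 ratio of -0.26. Reads of some of these genes cannot be placed uniquely: 56.6% of the 50-base windows of Psma5, 33.9% of Psma4 and 29.4% of Psma3 also occur elsewhere in mm9. Without such genes the median log2 ratio of the ring was -0.38.

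Psma8 (ENSMUSG00000036743, chr18:14864660-14920808, plus strand, mm9) had the lowest ratio of all 45 genes. It encodes an alpha subunit known from the proteasome of male germ cells, where it takes the place of Psma7. Psma8 had 8.39 RPKM in WT and 4.34 RPKM in G34R cells, on an estimated 1253 and 533 reads. It was thus 1.93-fold lower in G34R cells, a log2 ratio of -0.95 with a counting interval of -1.10 to -0.80. None of its windows occurs elsewhere in mm9, so reads of Psma7 or of a pseudogene could not be counted on it by an exact match. Psma7 itself had 27.9 RPKM in WT and 28.6 RPKM in G34R cells. Psma8 accordingly made up 23.1% of the RPKM of both genes in WT and 13.2% in G34R cells. These shares depend on length, being 8.29% and 4.36% with the longest coding transcript of each gene, but the direction does not.

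Constitutive beta subunits were the most abundant group, with a median of 68.5 RPKM in WT and 55.7 RPKM in G34R cells over 7 genes. Psmb1, a non-catalytic beta subunit, was the highest proteasome gene of WT cells with 87.8 RPKM, against 68.7 RPKM in G34R cells (log2 ratio -0.35, interval -0.41 to -0.30). The 3 subunits with a catalytic site did not move together. Psmb6, the caspase-like subunit, had 68.5 RPKM in WT and 55.7 RPKM in G34R cells (log2 ratio -0.30). Psmb7, the trypsin-like subunit, had 77.9 and 71.1 RPKM (-0.13). Psmb5, the chymotrypsin-like subunit and the main target of proteasome inhibitors, had 43.0 and 45.8 RPKM (0.09). Psmb5 thus had the highest log2 ratio of the ring and Psmb6 a ratio near the lowest, and of all 7 constitutive beta genes 5 were lower in G34R cells and 2 higher (median -0.20). For Psmb5, 56.8% of windows occur elsewhere in mm9 and 11.8% of exon bases overlap Mir686 on the same strand, so its reads are less certain. The lowest constitutive beta gene was Psmb3, with 27.2 RPKM in WT and 23.6 RPKM in G34R cells, and 63.5% of its windows occur elsewhere (12.8% for Psmb7).

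The inducible beta subunits Psmb8 and Psmb9 were under 1 RPKM in both cell lines; the other inducible subunit, Psmb10, lies on chromosome 8 and had 8.44 RPKM in WT and 7.53 RPKM in G34R cells. Psmb9 (ENSMUSG00000024337, chr17:34318932-34324709, minus strand, mm9), the inducible counterpart of Psmb6, had 0.53 RPKM in WT and 0.20 RPKM in G34R cells on an estimated 63 and 20 reads. Psmb8 (ENSMUSG00000024338, chr17:34334666-34338399, plus strand, mm9), the counterpart of Psmb5, had 0.16 RPKM in WT and 0.02 RPKM in G34R cells on an estimated 23 and 2 reads. Psmb11, the subunit of the proteasome of cortical thymic epithelium, was listed at 0 in both. Of the RPKM of Psmb6 and Psmb9 together, Psmb9 held 0.77% in WT and 0.36% in G34R cells. At the other position Psmb8 held 0.37% of the RPKM of Psmb5 and Psmb8 in WT and 0.044% in G34R cells. Psmb8 and Psmb9 were both lower in G34R cells, with log2 ratios of -1.41 (interval -2.18 to -0.63) for Psmb9 and -3.00 (interval -6.37 to -1.22) for Psmb8. Both intervals are wide because few reads stand behind these values. None of the windows of either gene occurs elsewhere in mm9.

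**Figure D3:**
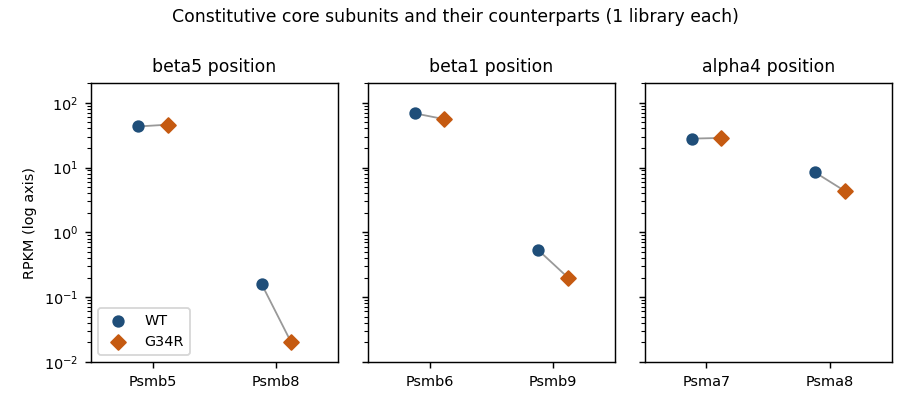
RPKM (log axis) of constitutive core subunits and of the subunits that can take their place at the beta5, beta1 and alpha4 positions, in WT (circles) and G34R cells (diamonds), 1 library each. The constitutive subunits differ little on this axis (log2 ratios of 0.09 for Psmb5, -0.30 for Psmb6 and 0.04 for Psma7), and Psmb8, Psmb9 and Psma8 are each lower in G34R cells.

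In the regulatory particle, the 6 ATPases of the base, which unfold substrates, ranged from 12.4 to 59.1 RPKM in WT and from 12.4 to 73.9 RPKM in G34R cells. Psmc1 had the highest RPKM and was the only ATPase that was higher in G34R cells under every scaling. It had 59.1 RPKM in WT and 73.9 RPKM in G34R cells (log2 ratio 0.32, interval 0.28 to 0.37). Of its windows, 18.9% occur elsewhere in mm9. Psmc6 had the lowest ratio, with 38.7 RPKM in WT and 30.1 RPKM in G34R cells (-0.37, interval -0.42 to -0.31). Psmc2 had the lowest RPKM of the ATPases and was level, with 12.4 RPKM in both. The ATPases form 1 ring with 1 copy of each, and the RPKM of Psmc2 was below that of Psmc1 in both libraries. The size of this gap depends on the length used. Merged exons were 2.82 times as long as the longest coding transcript for Psmc2, and 1 times as long for Psmc1. Of the 6 genes, 4 were lower in G34R cells under each scaling of the libraries, while the sign of Psmc2 changed with the scaling, and the median log2 ratio was -0.22.

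Non-ATPase subunits of the base hold the sites where ubiquitin and shuttle proteins dock. Psmd2, a docking scaffold, had 54.4 RPKM in WT and 53.5 RPKM in G34R cells (log2 ratio -0.02). Psmd4, a ubiquitin receptor, had 33.7 and 33.4 RPKM (-0.01). Psmd1, the other scaffold, was somewhat lower with 40.4 RPKM in WT and 36.3 RPKM in G34R cells (-0.15, interval -0.19 to -0.11). Of the exon bases of Psmd1, 8.07% overlap Armc9 on the same strand, so its reads are less certain. The intervals of Psmd2 and Psmd4 hold 0, although 24.9% of the windows of Psmd2 occur elsewhere in mm9. The median log2 ratio of the 3 was -0.02, and its sign turned under 3 of the 4 other scalings of the libraries (0.02 to 0.03), so no direction is given for the group.

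The lid removes ubiquitin chains, and its 7 genes lay between 12.1 and 57.9 RPKM in WT and between 14.3 and 54.0 RPKM in G34R cells. Psmd8 was the highest, with 57.9 RPKM in WT and 54.0 RPKM in G34R cells (log2 ratio -0.10). Psmd14, which carries the deubiquitinating activity of the lid, had 26 RPKM in WT and 21.6 RPKM in G34R cells (-0.27). The lowest ratio was that of Psmd6, with 24.7 and 19.7 RPKM (-0.33, interval -0.41 to -0.24). Psmd11 stood apart in the other direction, with 12.1 RPKM in WT and 14.3 RPKM in G34R cells (0.25, interval 0.17 to 0.32). It was also the least abundant lid gene, and 14.1% of its windows occur elsewhere. In all, 4 of the 7 lid genes were lower in G34R cells and 3 higher, with a median of -0.10.

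**Figure D4:**
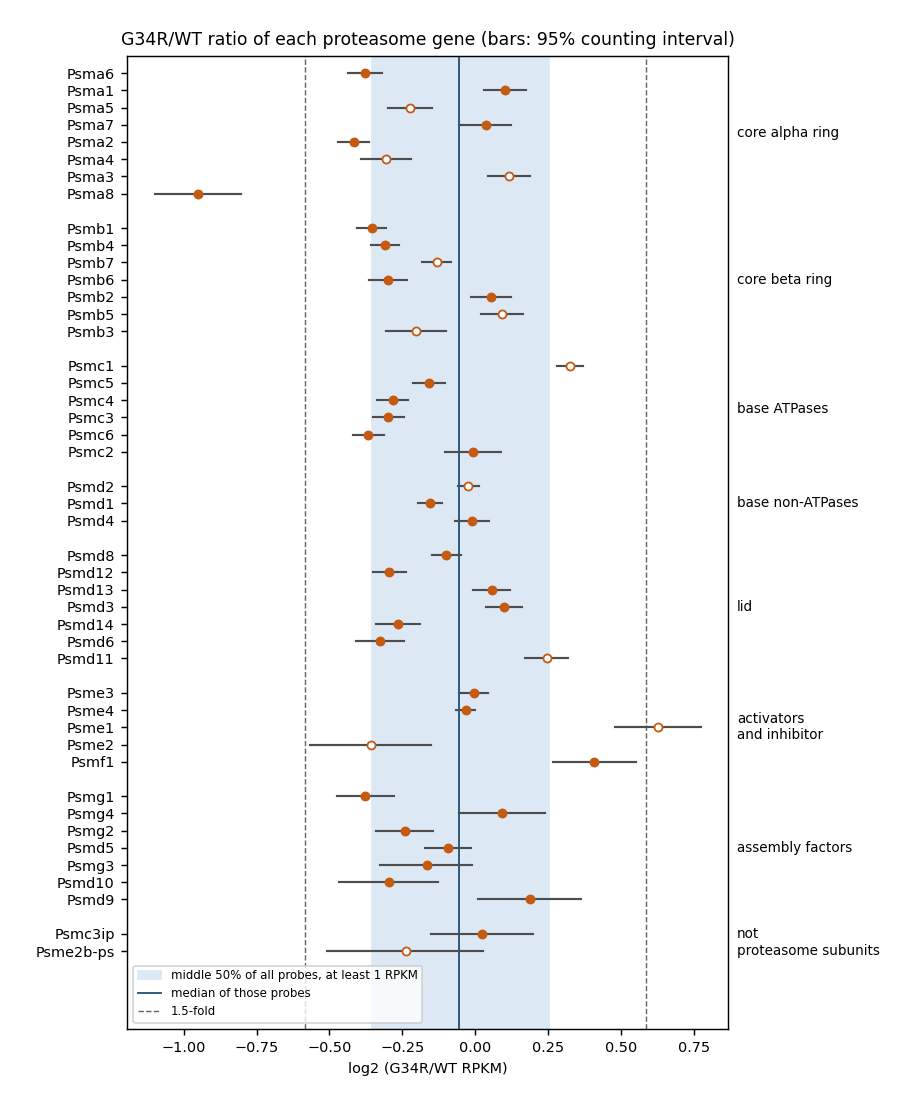
log2 (G34R/WT RPKM) of the 45 proteasome-named genes with at least 1 RPKM in 1 library, by group, with 95% counting intervals as bars; open circles mark genes with 10% or more of their windows elsewhere in mm9. Psma8 at -0.95 and Psme1 at 0.63 lie beyond the dashed 1.5-fold lines, and 35 genes lie in the shaded middle 50% of all genes (-0.35 to 0.25, with the median at -0.05).

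The activators were of 2 kinds by level. Psme3, the nuclear PA28 gamma subunit, had 32.7 RPKM in WT and 32.6 RPKM in G34R cells, and Psme4, the large activator PA200, had 30.4 and 29.8 RPKM. Both were level between the cell lines, with counting intervals of -0.05 to 0.04 and -0.06 to 0.00 on the log2 scale. Psme1 and Psme2, which encode the interferon-responsive PA28 alpha and beta subunits, were less abundant and differed in opposite directions. Psme1 (ENSMUSG00000022216, chr14:56196960-56200366, plus strand, mm9) had 6.87 RPKM in WT and 10.6 RPKM in G34R cells, on an estimated 674 and 855 reads. It was 1.54-fold higher in G34R cells, a log2 ratio of 0.63 with an interval of 0.48 to 0.77. Psme2 (ENSMUSG00000079197, chr14:56206278-56209950, minus strand, mm9), its neighbour on the chromosome and partner in the same ring, had 5.79 RPKM in WT and 4.52 RPKM in G34R cells (-0.36, interval -0.57 to -0.15). The ratio of Psme1 to Psme2 was thus 1.19 in WT and 2.35 in G34R cells.

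Copies elsewhere limit these PA28 values. Of the windows of Psme2, 54.9% occur elsewhere in mm9, and Psme2b-ps on chromosome 11 had 3.87 RPKM in WT and 3.28 RPKM in G34R cells (log2 ratio -0.24), with 30.3% of its own windows elsewhere. Of the windows of Psme1, 11.2% occur elsewhere, and leaving out all genes with 10% or more left 0 proteasome genes more than 1.5-fold higher. With 1 RPKM added to both values, Psme1 also came below 1.5-fold. Psmf1, the proteasome inhibitor PI31, was the least abundant of this group with 2.32 RPKM in WT and 3.08 RPKM in G34R cells (0.41, interval 0.27 to 0.55). None of its windows occurs elsewhere. Over the 5 activator and inhibitor genes the median log2 ratio was 0.00, being -0.004 as deposited and positive under each of the 4 other scalings (0.02 to 0.05).

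Assembly factors build the core and the base and are not part of the finished complex. Their median level was 16.6 RPKM in WT and 15.2 RPKM in G34R cells. Over genes past the filter, the core particle had medians of 32.8 and 35.2 RPKM, and the regulatory particle 36.9 and 31.7 RPKM. Single genes overlapped between these groups. Both core medians were the values of Psma1. The median log2 ratio of the core particle was -0.22, with 10 genes lower in G34R cells and 5 higher. That of the regulatory particle was -0.13, with 12 lower and 4 higher. The 7 assembly genes lay between 2.37 and 23.7 RPKM in WT and between 2.70 and 18.3 RPKM in G34R cells. Psmg1, which forms a dimer with Psmg2 as a chaperone of the alpha ring, was the most abundant and had the lowest ratio, with 23.7 RPKM in WT and 18.3 RPKM in G34R cells (log2 ratio -0.38, interval -0.48 to -0.28). Psmg2 had 18 and 15.2 RPKM (-0.24), so both partners were lower. Psmg3 and Psmg4 form the other dimer of this kind, with 10.5 and 9.39 RPKM for Psmg3 (-0.17) and 16.6 and 17.7 RPKM for Psmg4 (0.09). Psmd5, Psmd9 and Psmd10 are chaperones of the base. Psmd9 was the least abundant, with 2.37 RPKM in WT and 2.70 RPKM in G34R cells, and had the highest ratio of the assembly factors (0.19, interval 0.01 to 0.36). The median log2 ratio of the 7 was -0.17, with 5 lower and 2 higher. Psmc3ip, which is not a proteasome gene, had 5.16 RPKM in WT and 5.25 RPKM in G34R cells (0.02).

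The 48 rows taken by name lay on 15 chromosomes, and chromosome 11 held more of them (10 genes) than any other. These 10 include Psmc3ip and the Psme2 copy Psme2b-ps, which were grouped apart from the subunits and factors. The 10 on chromosome 11 had a median log2 ratio of -0.09, against -0.03 for all 874 genes of that chromosome past the filter. On chromosome 13, Psma2 had a log2 ratio of -0.42 and Psmg4 of 0.09, with an interval of -0.05 to 0.24 that holds 0. The neighbours Psme1 and Psme2 on chromosome 14 had log2 ratios of 0.63 and -0.36, with 54.9% of the windows of Psme2 elsewhere in mm9. Whether genes close together share a direction was not tested. Psmd10 was the only gene on the X chromosome, with 5.59 RPKM in WT and 4.55 RPKM in G34R cells (-0.30), where the median of all X-linked genes was -0.21.

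Other genes of the pathway, from lists chosen with earlier results of these data known, mostly showed values of the same size. Of 11 proteasome-associated genes that were quantitated, 0 differed by more than 1.5-fold (11.3% of all genes were higher and 14.1% lower) and the median log2 ratio was -0.12. The highest of them in G34R cells was Pomp, with 58.3 RPKM in WT and 51.2 RPKM in G34R cells. In WT cells the highest was Shfm1, a small subunit of the lid, with 61.4 RPKM, against 44.5 RPKM in G34R cells. The lowest was Fbxo7 with 1.88 and 2.03 RPKM. Of 5 genes for ubiquitin and the enzymes that activate it, 0 passed 1.5-fold either. Ubb, a polyubiquitin gene, had 197 RPKM in WT and 196 RPKM in G34R cells, and Uba6, an activating enzyme, had 8.15 and 6.60 RPKM. Of 10 genes for ubiquitin shuttles and the unfoldase, 1 was more than 1.5-fold higher and 0 lower. This was Ubqln2, a shuttle on the X chromosome, with 7.24 RPKM in WT and 12.3 RPKM in G34R cells (0.76). Vcp, the unfoldase, had 39.6 RPKM in WT and 47.2 RPKM in G34R cells, and Ufd1l, its co-factor, had 4.50 and 3.39 RPKM.

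Of 9 regulators of proteasome gene transcription, 8 had at least 1 RPKM in 1 library and 0 of these differed by more than 1.5-fold, where 11.3% of all genes were higher and 14.1% lower. Their log2 ratios lay between -0.25 and 0.41. Nfe2l1, whose product NRF1 is known to raise proteasome gene transcription when the proteasome is impaired, had 16.5 RPKM in WT and 14.3 RPKM in G34R cells (log2 ratio -0.21). Nfe2l2, the related antioxidant regulator, had 11.2 and 14.9 RPKM (0.41, interval 0.33 to 0.49), the highest ratio of the list. Nfya, a subunit of the factor that binds CCAAT, was the lowest of those past the filter with 3.92 RPKM in WT and 4.17 RPKM in G34R cells. Ngly1, which is needed for the maturation of NRF1, was under 1 RPKM in both (0.76 and 0.69 RPKM).

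Genes of MHC class I antigen presentation, which act on the peptides that the proteasome makes, had the largest differences of the 5 lists. Of 8 genes, 5 had at least 1 RPKM in 1 library, and 3 of these were more than 1.5-fold lower in G34R cells and 0 higher. All 3 were also more than 2-fold lower, where 14.1% and 6.42% of all genes were lower by these folds. H2-D1, a class I heavy chain, had 2.80 RPKM in WT and 0.51 RPKM in G34R cells (log2 ratio -2.46, interval -2.81 to -2.11). H2-D1 thus passed the filter only through WT, the library where it is higher. H2-K1, the other heavy chain, had 4.05 and 1.85 RPKM (-1.13, interval -1.36 to -0.90). Irf1, a transcription factor that is known to induce Psmb9 and class I genes, had 5.41 and 2.18 RPKM (-1.31, interval -1.49 to -1.13). The other genes past the filter, Tapbp and B2m, had log2 ratios of -0.51 and -0.21, and the median of the 5 was -1.13. Reads of H2-D1 and H2-K1 are uncertain because class I genes are a family of near-identical copies.

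Psmb9 and Psmb8 lie beside the peptide transporter genes Tap1 and Tap2 on chromosome 17. Tap1 had 0.88 RPKM in WT and 0.59 RPKM in G34R cells (log2 ratio -0.58, interval -0.90 to -0.26), in the direction of Psmb9 and Psmb8. Tap2 had 0.14 and 0.18 RPKM (0.36), with an interval of -0.29 to 0.99 that holds 0. Haematopoietic cells express the inducible subunits strongly, so 5 of their markers were examined beside these genes. Their RPKM summed to 7.87 in WT and 25 in G34R cells, but the 5 markers did not share a direction. Most of the sum was Laptm5, with 6.04 RPKM in WT and 23.0 RPKM in G34R cells. Coro1a had 0.78 and 1.24 RPKM, whereas Cd74 had 1.05 and 0.82 RPKM (log2 ratio -0.36, interval -0.77 to 0.05). The defining marker Ptprc had 0 and 0.01 RPKM, and Tyrobp was listed at 0 in both. Whether such cells contributed to the values of Psmb8 and Psmb9 was not tested.

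**Figure D5:**
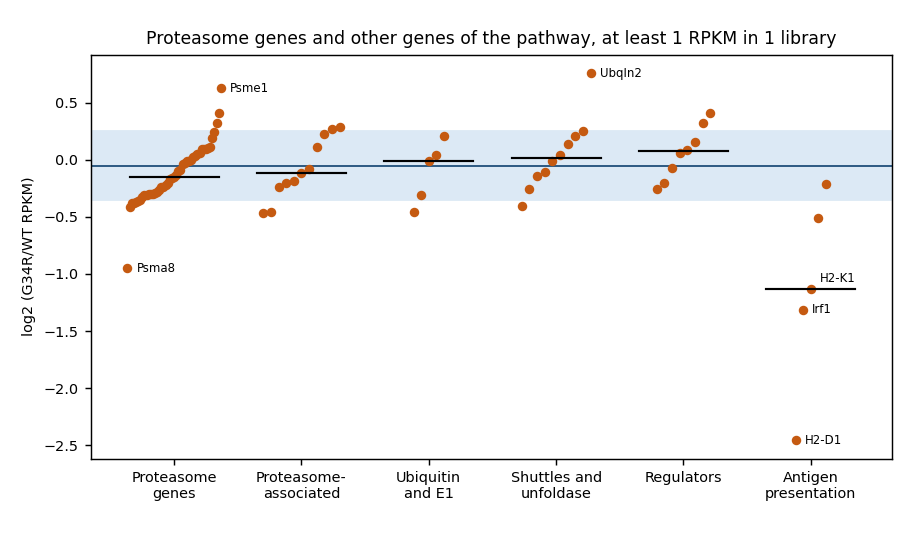
log2 (G34R/WT RPKM) of proteasome genes and of 5 other lists of the pathway, for genes with at least 1 RPKM in 1 library; black bars are list medians, and the blue line and shading are the median (-0.05) and middle 50% of all genes. Proteasome genes gather around -0.15, whereas H2-K1, Irf1 and H2-D1 of the antigen presentation list lie below -1.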

How the data were processed

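The 2 libraries, 1 of WT and 1 of G34R mouse ES cells, were measured by RNA-seq. Per the labels and the study's methods, the authors amplified stranded libraries of total RNA (500 ng) for 12 cycles, aligned 50 bp single-end reads to mm9 with STAR 2.4.2a, and quantitated primary alignments in Seqmonk over merged isoforms with length correction. The authors deposited these values as RPKM, so a multiply mapping read stands at 1 place and each value is relative to its library's own total. Counts were not analysed here.

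Gene rows were taken by name, and the log2 ratio of G34R to WT RPKM was taken after raising values below 0.01 RPKM to 0.01. Counts of genes past a fold, and medians, used at least 1 RPKM in 1 library. The members and lists were chosen with earlier results of these data known, and 3 genes of the pathway lists are not reported here and are in none of their counts or medians. Genes were named by a fixed rule: genes past 1.5-fold, catalytic and tissue-restricted subunits, genes under 1 RPKM, and the highest and lowest level and ratio of each group. Psma2, Psma7, Psmd14, Psmg2, Psmg3, Psmg4, Psmd10, Psme4, Nfe2l2 and the markers were added after their values were seen. Depth estimates came from RPKM steps in 86 (WT) and 65 (G34R) genes under 800 bp with up to 6 reads, by a script that was tested on simulated data. Reads per gene were estimated with the longest coding transcript, and 95% intervals of ratios are exact conditional binomial ones. For each gene, 50-base windows of its coding transcripts were searched in the mm9 genome on both strands. Exon bases outside the coding transcripts were not searched. Alternatives were other pseudocounts, filters and scalings, and 2 added after seeing the data (leaving out genes with 10% or more of windows elsewhere, and transcript lengths for shares of paired subunits). Exon overlaps were taken on the same strand only, since the authors' counting was strand-specific. Tools were Python 3.11.15, Numba 0.67.0, NumPy 2.4.6, SciPy 1.17.1, matplotlib 3.10.9 and pandas 2.3.3.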

Additional observations from a re-analysis of the deposited data

How the results depend on the processing

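With 1 library per cell line, no library could be left out and no replicate error exists. No paired analysis was possible because each cell line had 1 library. Scaling moved every log2 ratio by 0.02 to 0.06, and under all scalings the median of all proteasome genes stayed below 0. It was -0.107 with the libraries set to the same sum of RPKM, -0.0989 with the median of all genes set to 0 and -0.0947 with the same sum outside chromosomes 8, X and Y. The median of the base non-ATPases turned to 0.0223, 0.0306 and 0.0349 under these scalings in turn. That of the activators and inhibitor turned to 0.0421, 0.0505 and 0.0547, and to 0.0172 with the same 75th percentile. With the median of all genes at 0, base ATPases were at -0.166 and the lid at -0.0446, and with the same sum outside chromosomes 8, X and Y they were at -0.162 and -0.0404. A pseudocount of 1 RPKM left 0 genes more than 1.5-fold higher. Lower filters added Psmb9 and Psmb8. At 0.25 RPKM, 2 genes were more than 1.5-fold lower and 1 more than 2-fold lower, and with no filter 3 and 2. The shares of all genes were not taken at these lower filters, so these counts have no reference. Leaving out genes with 10% or more of windows elsewhere, chosen after seeing the data, left 0 genes more than 1.5-fold higher, with medians of -0.38 for the alpha ring, -0.28 for base ATPases, -0.0825 for base non-ATPases and -0.18 for the lid. Of 168 ratios of the 28 genes named by rule under an alternative, 145 stayed inside the counting interval of the deposited value. The sign changed in 15 of the 168, all of them scalings of 4 genes within 0.03 of 0 as deposited (Psmc2, Psmd2, Psmd4 and Psme3), which reached 0.0547 at most. At these depths 1 read on 1 kb was worth 0.0113 RPKM in WT and 0.0138 RPKM in G34R cells, which limits Psmb8 and Psmb9.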

Other observations

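Chromosome 8 was left out of the proteasome genes above, and holds 2 more of them. Psmd7, a lid subunit that pairs with Psmd14, had 39.4 RPKM in WT and 61.0 RPKM in G34R cells (log2 ratio 0.63, interval 0.58 to 0.68). Its value was about that of Psme1, the highest ratio of the other chromosomes. Psmb10, the third inducible beta subunit, had 8.44 RPKM in WT and 7.53 RPKM in G34R cells (-0.16, interval -0.31 to -0.02). It was thus far more abundant than Psmb8 and Psmb9 in both cell lines. The median log2 ratio of all 595 chromosome 8 genes past the filter was 0.36. Nlrc5, a regulator of class I genes on the same chromosome, had 0.04 RPKM in WT and 0.01 RPKM in G34R cells.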
